A study of Mus musculus with 11 samples.

Results

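A set of 10 genes of the Notch pathway was followed through 2 stages of thymocyte development in wild-type and Arpp21-/- mice: the receptors Notch1, Notch2 and Notch3, the DNA-binding partner Rbpj, the receptor-modifying enzyme Lfng, and the target genes Hes1, Nrarp, Dtx1, Dtx4 and Trib2. They are 10 of the 22333 genes with a count, and all 10 were among the 13780 genes that passed the filter on low counts. Trib2 aside, they were listed for their known place in Notch signaling, with earlier results of these data known. Counts of them set beside all genes are therefore a description. Trib2 was listed because its level was higher in Arpp21-/- than in WT DN2 thymocytes in these same libraries, so that difference is described here and not tested.

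The study asked which transcripts depend on Arpp21, an RNA-binding protein of developing thymocytes. RNA-seq was done on sorted double-negative (DN) thymocytes, the immature cells that carry neither CD4 nor CD8, at the DN2 and the DN3 stage, with 3 libraries of each stage for WT, and 2 DN2 and 3 DN3 libraries for Arpp21-/- cells. The mice were C57BL/6J by label, and the knockout (KO) was made by deleting exon 5 of Arpp21 with CRISPR-Cas9. Animals of both sexes, 6 weeks to 1 year old, were used with sex and age matched, the age behind each library is not given in the sources used here, and it is not stated whether each library came from a separate animal, so p-values measure the spread between these libraries.

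Notch receptors sit at the cell surface, and ligand on a neighboring cell, in the thymus mainly Delta-like 4 on epithelial cells, leads to their cleavage by ADAM proteases and γ-secretase. The freed intracellular part enters the nucleus and joins Rbpj on DNA to switch on target genes, among them Hes1, Dtx1, Nrarp and Ptcra. Early thymocytes need this signal to enter the T lineage and to reach β-selection at DN3, after which it is lowered.

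Estimated counts summed to between 14531762 and 63109504 per library. Arpp21 itself, measured over all its transcripts, was at 125 to 183 CPM (counts scaled to a common library size) in DN2 WT and at 86.9 and 28.5 CPM in DN2 Arpp21-/-, and at 312 to 386 CPM in DN3 WT against 335, 221 and 142 CPM in DN3 Arpp21-/-, so the DN3 groups overlapped; a deletion of 1 exon need not remove the mRNA, and the sum over transcripts is a weak check of the labels. Replicate 2 of DN2 Arpp21-/- and replicate 3 of DN3 Arpp21-/- stood apart from their stage. Their log2 CPM correlated with the other libraries of their stage at r = 0.587 to 0.69 and 0.768 to 0.843, where the others correlated among themselves at 0.924 to 0.969 and 0.961 to 0.988. In both, long transcripts read low and short ones high. Among 570 genes longer than 5000 bases the median log2 ratio of replicate 2 to replicate 1 of DN2 Arpp21-/- was -2.39, and among 2373 genes under 1500 bases it was 1.52. For DN3 Arpp21-/-, replicate 3 against the mean of the other two gave -1.42 and 0.74. The Notch receptors have some of the longest transcripts of the 10 genes, and the log2 fold changes that rest on these libraries are given with and without them.

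**Figure D1:**
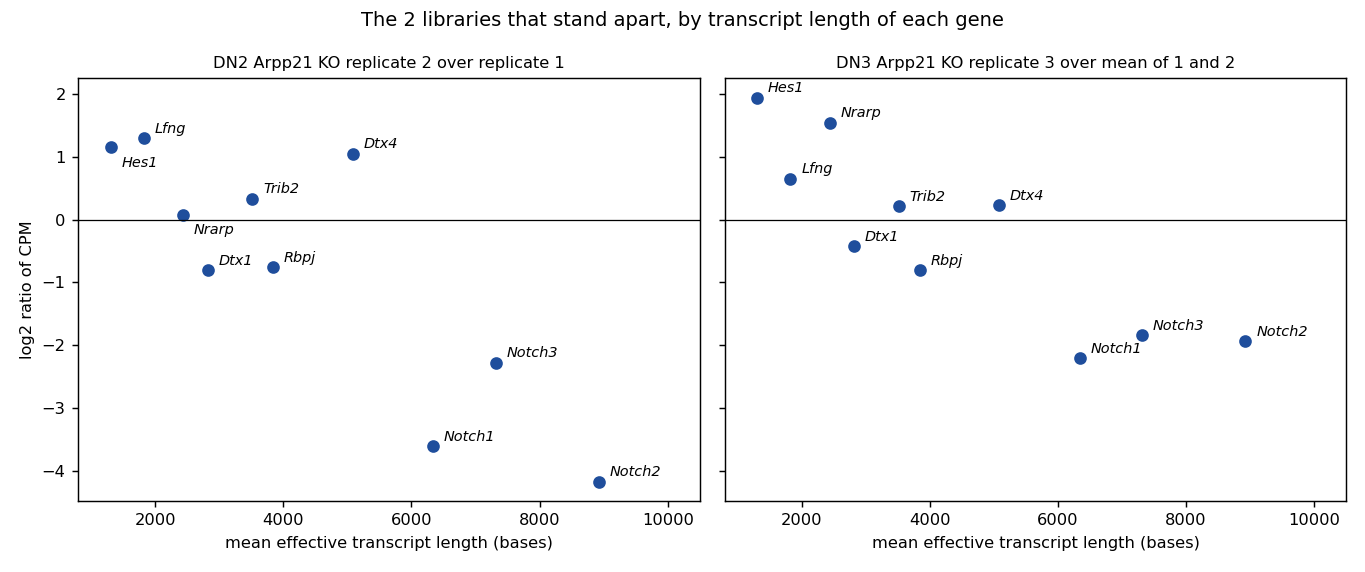
Log2 ratio of CPM (vertical axis) in the 2 libraries that stand apart against the mean effective transcript length in bases (horizontal axis), 1 point per gene, for DN2 Arpp21-/- replicate 2 over replicate 1 (left) and DN3 Arpp21-/- replicate 3 over the mean of replicates 1 and 2 (right). Notch1, Notch2 and Notch3 lie lowest in both panels, and Hes1 and Lfng lie above 0.

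The ratios of the single genes differed in the same manner. Between replicates 2 and 1 of DN2 Arpp21-/-, Notch1 with an effective length of 6337 bases was at 0.0821 of the level, Notch2 with 8925 bases at 0.0556 and Notch3 with 7315 bases at 0.206. Hes1 with 1303 bases was 2.22-fold and Lfng with 1822 bases 2.45-fold higher in replicate 2. Dtx4, with 5080 bases, was 2.07-fold higher there and so did not follow its length, and Trib2, with 3518 bases, differed by 1.26-fold. These ratios hold for CPM only. In TPM replicate 2 was below replicate 1 for Hes1 (25.4 against 31.8), Lfng (49.1 against 58.1), Dtx4 (1.53 against 2.11) and Trib2 (4.79 against 8.47). By CPM in DN3, replicate 3 held Notch1 at 0.217, Notch2 at 0.26 and Notch3 at 0.279 of the mean of replicates 1 and 2. Hes1 was at 3.84-fold, Nrarp at 2.91-fold and Trib2 at 1.16-fold of that mean. In TPM Trib2 was lowest in replicate 3, at 13.1 against 18.2 and 16.4 TPM.

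Per unit of transcript length, Notch1 was the most abundant of the 10 genes in WT cells of both stages. In TPM, a level scaled by transcript length and by the library's total, it stood at 88.8 ± 14.2 TPM in DN2 WT and 236 ± 15.3 TPM in DN3 WT (SD, n = 3). In DN2 WT it was followed by Lfng at 48.6 ± 8.72, Rbpj at 48.4 ± 3.22 and Hes1 at 35.3 ± 18.0 TPM, whose ranges overlapped from each to the next. Notch2 at 12.2 ± 2.66, Notch3 at 8.7 ± 2.46, Nrarp at 5.01 ± 4.74 and Dtx4 at 3.87 ± 0.55 TPM formed a lower, overlapping group, and Dtx1 at 2.86 ± 0.523 and Trib2 at 1.73 ± 0.445 TPM were lowest.

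In DN3 WT the order was different. Notch3 at 81.7 ± 12.5 TPM took the second place, with no overlap with Notch1 above or Dtx1 below it (SD, n = 3). Dtx1 at 57.8 ± 4.68, Hes1 at 54.4 ± 24.9, Rbpj at 39.7 ± 6.51 and Lfng at 32.6 ± 5.98 TPM overlapped from each to the next. Trib2 at 14.4 ± 1.99 TPM overlapped Notch2 at 10.2 ± 2.25 TPM, and Dtx4 at 5.09 ± 0.872 and Nrarp at 1.87 ± 0.976 TPM came last. Notch3, Dtx1 and Trib2 thus moved up the order between the stages, and Notch2, Nrarp and Dtx4 stayed in its lower part.

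**Figure D2:**
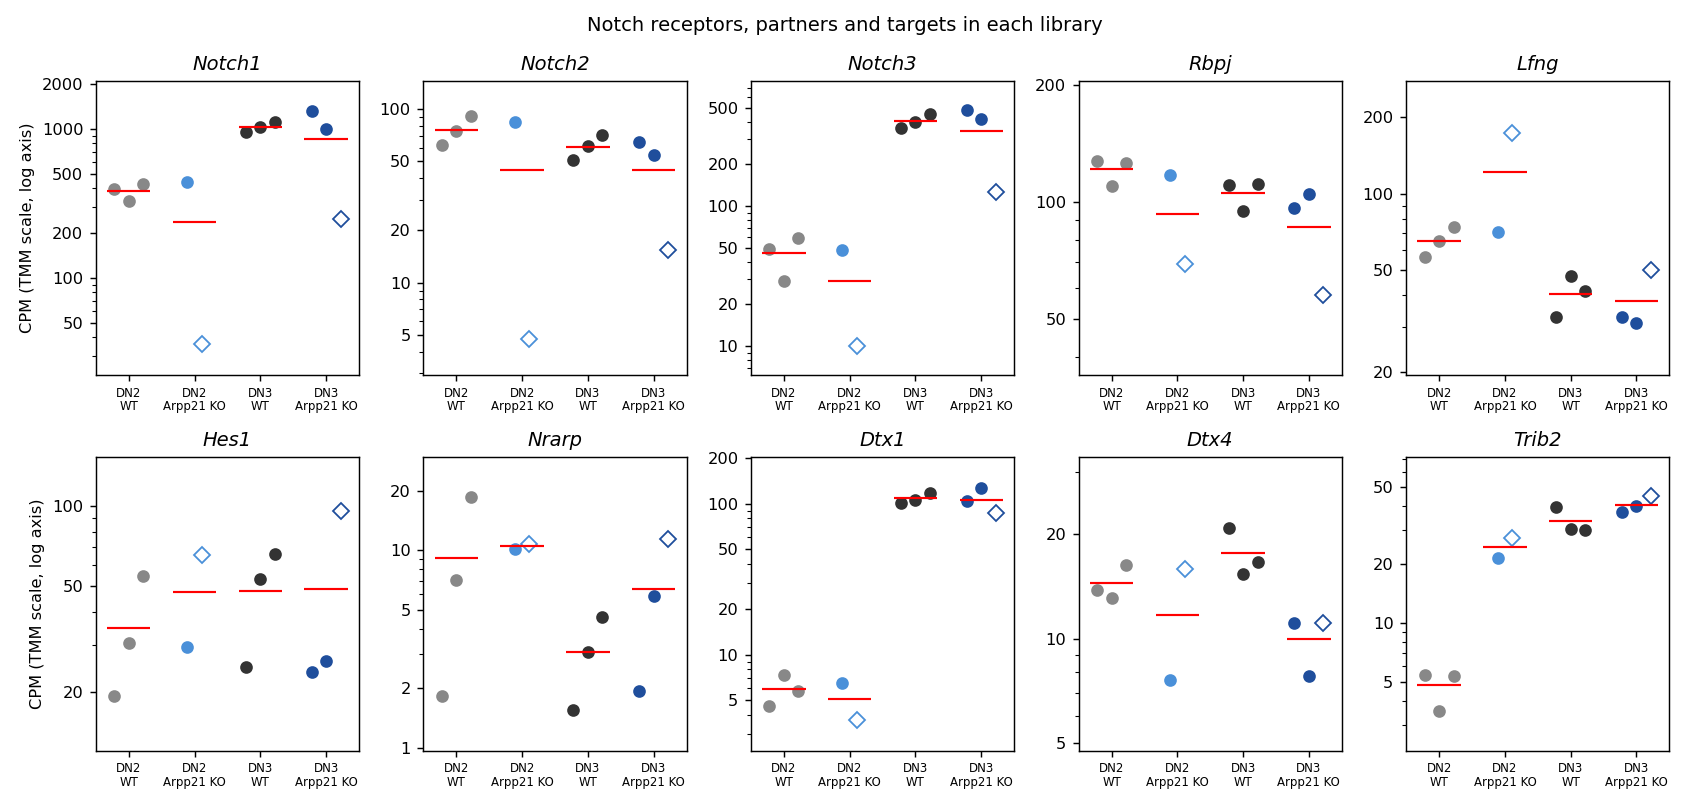
Level of each of the 10 genes in CPM on the TMM scale (vertical log axis) in each of the 11 libraries, by group of stage and genotype. Points are libraries, red lines are group means, and open diamonds are the 2 libraries that stand apart; Notch1, Notch3, Dtx1 and Trib2 are higher in every DN3 WT than in every DN2 WT library, and Trib2 is higher in both DN2 Arpp21-/- libraries than in every DN2 WT library.

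Between DN2 and DN3 in WT cells, 3 of the 9 genes tested were higher in DN3 (Notch1, Notch3 and Dtx1) and 0 were lower by edgeR's quasi-likelihood test at an adjusted p under 0.05. Over all 12479 genes tested, 15.6% were called in either direction, 6.64% as higher and 8.95% as lower, and the median log2 fold change was 0.032 over all genes and 0.31 over the 9. DESeq2 called 4 of the 9. The edgeR test did not pair libraries by replicate number, and with the number as a block it called 4 of the 9. Trib2 shares the DN2 WT libraries with the difference it was chosen for and is described without a test.

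Notch1, the receptor that early thymocytes require, read 396, 329.9 and 429 CPM in the DN2 WT libraries and 956, 1028 and 1105 CPM in the DN3 WT libraries. All 3 DN3 libraries were above all 3 DN2 libraries, which also held for Notch3 and Dtx1 and for 17.5% of all genes tested. It held for Trib2 too, which is left out of this comparison because its DN2 WT values were part of its choice. The means were 385 ± 50.3 and 1029.5 ± 74.6 CPM (SD, n = 3), a 2.67-fold difference, with a log2 fold change of 1.45 (SE 0.13, edgeR quasi-likelihood test, Benjamini-Hochberg adjusted p = 0.000447). As in any bulk library, more cells with the transcript and more transcript per cell cannot be told apart. The call depended on the libraries that set the spread: in a fit to all 11 libraries the log2 fold change was 1.42 and the edgeR adjusted p was 0.509.

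Notch3, a receptor known from immature thymocytes, rose more steeply. It read 49.5, 29 and 59.4 CPM in DN2 WT and 362, 399 and 454 CPM in DN3 WT. The lowest DN3 library was 6.09-fold above the highest DN2 library. The means were 46 ± 15.5 and 405 ± 46.4 CPM (SD, n = 3), with a log2 fold change of 3.16 (SE 0.271, edgeR adjusted p = 0.000372).

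Notch2, the receptor best known for its part in marginal zone B cells, gave 61.8, 75.2 and 90.7 CPM in DN2 WT and 50.9, 61 and 70.5 CPM in DN3 WT. The groups overlapped, and the difference did not pass the test (log2 fold change -0.29, SE 0.19, edgeR adjusted p = 0.38). Within each pair of same-numbered libraries Notch2 was lower in DN3, by 0.28, 0.30 and 0.36 on the log2 scale. All 10 genes kept 1 direction over the 3 WT pairs, and the share of all genes that did so was not computed. With the replicate number as a block Notch2 did not pass (log2 fold change -0.29, edgeR adjusted p = 0.0887). Notch4, the remaining receptor of the family, stayed at or under 1.12 CPM in every library. Among the receptors, 2 of 3 were called as higher in DN3, where 6.64% of all genes were. The call of Notch1 was lost in the fit to all 11 libraries.

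Rbpj, through which all 4 receptors reach DNA, was at 128, 109.8 and 126 CPM in DN2 WT and at 111, 94.5 and 111 CPM in DN3 WT. The ranges overlapped narrowly, and the log2 fold change of -0.18 (SE 0.119) had an edgeR adjusted p of 0.395. Lfng, the glycosyltransferase that extends O-fucose on Notch and tunes its response to Delta and Jagged ligands, moved the other way from the receptors that rose. It read 56.7, 65 and 74 CPM in DN2 WT and 32.7, 47.4 and 41.4 CPM in DN3 WT, so every DN3 library was below every DN2 library, as were 18.5% of all genes tested. The difference fell just short of the threshold (log2 fold change -0.66, SE 0.184, edgeR adjusted p = 0.0515). With the replicate number as a block, which pairs the WT libraries across the stages, Lfng was called as lower in DN3 (log2 fold change -0.67, SE 0.135, edgeR adjusted p = 0.0102), and over 8 alternative settings, the block among them, it ranged from -0.69 to -0.57 and passed in 5. It also passed without DN2 WT replicate 1, at -0.76 (edgeR adjusted p = 0.038).

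Lfng and Rbpj were also the genes whose RefSeq promoters held the core letters TGGGAA known as the binding motif of Rbpj. The promoter window ran from 250 bases before to 50 bases after each gene's start in GRCm38.p6. Windows were at hand for 8 of the 10 genes, and 2 of the 8 genes held TGGGAA or its reverse complement TTCCCA in a window, against 28.3% of 27025 genes and 25.6% of their 32851 promoters of the same length. The 30 bases around each match are shown because they are the places a reader would compare with Rbpj binding data, on the strand of the gene with the match in capitals. They lie upstream of the start sites, both genes being on the plus strand, and the first base of the match is 108 and 135 bases before the start of Lfng and 149 and 65 bases before the first of 2 listed starts of Rbpj.
Lfng, chr5:140607221-140607250: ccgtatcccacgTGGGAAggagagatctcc
Lfng, chr5:140607194-140607223: ccagctgggtggTTCCCAgccccttgtccg
Rbpj, chr5:53590185-53590214: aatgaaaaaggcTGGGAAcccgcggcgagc
Rbpj, chr5:53590269-53590298: gacgctcgcattTTCCCAggacccctcctc

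These matches are a description of the letters and not binding sites. The windows of Notch1, Notch2, Notch3, Nrarp, Dtx1 and Trib2 do not hold these letters, which says nothing about sequence outside the windows. Hes1 and Dtx4 have no entry in the promoter table.

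Dtx1, a Deltex ubiquitin ligase and a target gene of Notch, showed the steepest rise of the 10 genes in WT. It read 4.62, 7.32 and 5.79 CPM in DN2 WT and 100.7, 106 and 118 CPM in DN3 WT. Every DN3 library was at least 13.8-fold above every DN2 library. The log2 fold change was 4.23 (SE 0.204, edgeR adjusted p = 3.83e-05), an 18.3-fold difference of the means of 5.91 ± 1.35 and 108 ± 8.99 CPM (SD, n = 3).

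Trib2, a pseudokinase that adapts ubiquitin ligases to their substrates and a target of Notch in T cell leukemia, read 5.44, 3.54 and 5.37 CPM in DN2 WT and 39.4, 30.4 and 30.2 CPM in DN3 WT. All DN3 libraries were higher, the lowest of them 5.54-fold above the highest DN2 library. Its log2 fold change of 2.82 (SE 0.246) is given without a test.

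Hes1, the repressor that is the classical Notch target, did not separate the stages. It read 19.2, 30.4 and 54.5 CPM in DN2 WT and 24.8, 53.1 and 66.3 CPM in DN3 WT (log2 fold change 0.51, SE 0.461, edgeR adjusted p = 0.538). The spread was between replicate numbers: replicate 1 was low and replicate 3 high at both stages. Within each number Hes1 was higher in DN3, by 0.37, 0.81 and 0.28 on the log2 scale. With the number as a block it fell just short of the threshold (log2 fold change 0.51, SE 0.158, edgeR adjusted p = 0.0514).

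Nrarp, a small ankyrin protein that Notch induces and that limits Notch signaling, was the least abundant target in DN3. It read 1.83, 7.04 and 18.6 CPM in DN2 WT and 1.55, 3.07 and 4.6 CPM in DN3 WT. The groups overlapped (log2 fold change -1.53, SE 0.797, edgeR adjusted p = 0.26), again with replicate 1 low and replicate 3 high at both stages. Within each number Nrarp was lower in DN3, by 0.24, 1.2 and 2.02 on the log2 scale. With the number as a block it did not pass (log2 fold change -1.16, SE 0.424, edgeR adjusted p = 0.0885).

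Dtx4, another Deltex family ligase, read 13.8, 13.1 and 16.3 CPM in DN2 WT and 20.8, 15.3 and 16.6 CPM in DN3 WT. These overlapped, and the difference did not pass the test (log2 fold change 0.31, SE 0.202, edgeR adjusted p = 0.383). The 2 Deltex genes of the list, Dtx1 and Dtx4, therefore differed in what was called between the stages; the difference between the genes was not tested. Of the other Deltex genes, named here for their kinship after their values were seen, Dtx2 had a log2 fold change of 0.09, Dtx3 of 0.64 and Dtx3l of 0.52, with edgeR adjusted p of 0.802, 0.0816 and 0.0515.

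**Figure D3:**
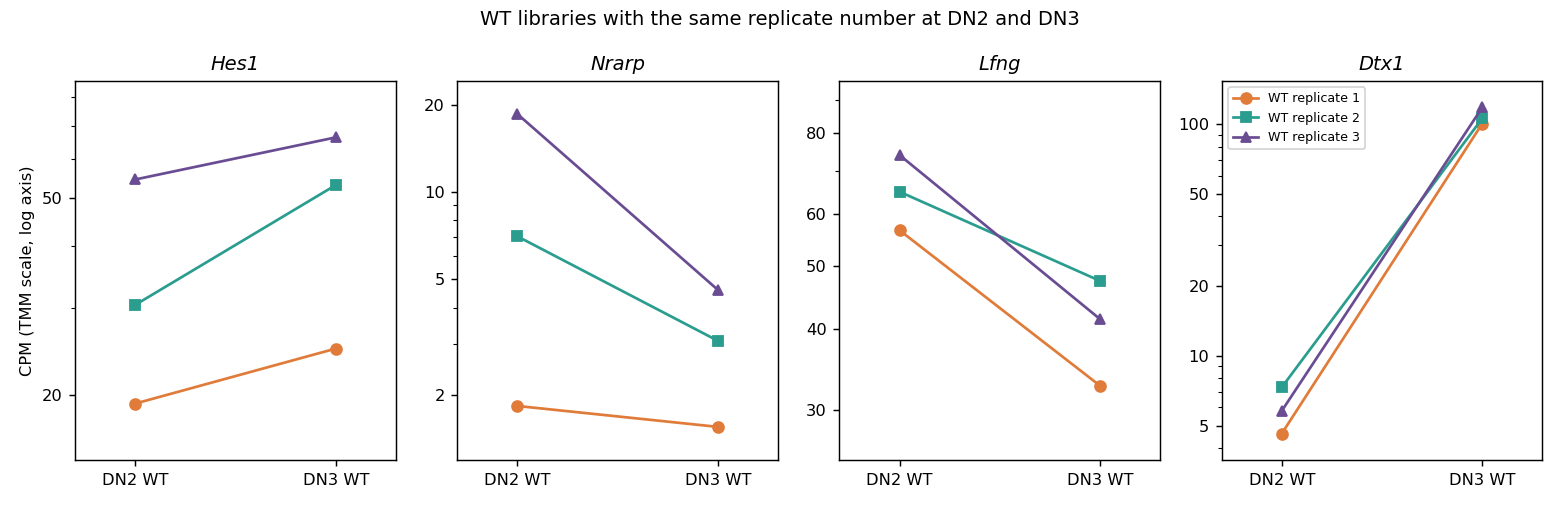
Levels of Hes1, Nrarp, Lfng and Dtx1 in CPM (vertical log axes, which differ between panels) in the DN2 WT and DN3 WT libraries, with a line joining libraries of the same replicate number. For Hes1 and Nrarp replicate 1 is lowest and replicate 3 highest at both stages, for Lfng all 3 lines go down, and for Dtx1 the distance between the stages is far larger than that between numbers.

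The other genes of the pathway were mostly not called between the stages in WT. Of 56 further genes listed by role (ligands, Notch4, glycosylation, cleavage, coactivators, corepressors, turnover and HES or HEY factors), 47 were tested, 3 were called as higher and 1 as lower, with 15.6% of all genes called, 8 had an unadjusted p under 0.05 and 7 were called by DESeq2, and their median log2 fold change was 0.12. Ligands were almost absent from these cells. Dll1 and Dll4 had 0 counts in every library, where 3 counts would be 0.0802 to 0.242 CPM, and Dll3 and Jag1 stayed at or under 0.16 CPM. Jag2 was the ligand with counts in most libraries, at 0.954 to 1.92 CPM in DN2 WT and 4.06 to 6.09 CPM in DN3 WT, and it was called as higher (log2 fold change 1.78, SE 0.432, edgeR adjusted p = 0.0308).

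By role, 0 of 4 glycosylation genes, 0 of 10 cleavage genes, 0 of 7 coactivators and 0 of 9 tested genes of receptor turnover and traffic were called by edgeR; at an unadjusted p under 0.05 the counts were 0, 1, 0 and 2, and by DESeq2 0, 0, 0 and 2. Mfng, the Fringe paralog of Lfng, likewise named after its value was seen, was at 81.7 to 87.4 CPM in DN2 WT and 85 to 92.4 CPM in DN3 WT (log2 fold change 0.12). Among the 12 corepressors tested Spen, which bridges Rbpj to repressor complexes, was higher (log2 fold change 0.85, SE 0.196, edgeR adjusted p = 0.0256) and Tle4, a Groucho protein, was lower (log2 fold change -1.31, SE 0.351, edgeR adjusted p = 0.0445). Heyl, a target related to Hes1, rose from at most 0.958 CPM in DN2 WT to 5.84 to 8.71 CPM in DN3 WT (log2 fold change 3.72, SE 0.957, edgeR adjusted p = 0.038), the only call among the 3 tested of 6 HES and HEY genes.

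Of 9 further genes known to depend on Notch in early thymocytes, 4 were called as higher in DN3 WT and 0 as lower, where 6.64% of all genes were called as higher, with a median log2 fold change of 0.86. At an unadjusted p under 0.05 the count was 6, and DESeq2 called 6. The list was drawn up with earlier results of these data known and shares genes with the stage markers given below. Ptcra and Cd3e are DN3 markers there and Tcf7 is a DN2 marker. The count therefore describes the stages, and nothing about Notch is read from it. Ptcra, the pre-TCR alpha chain, rose from 1.00 to 2.96 CPM to 365 to 436 CPM (log2 fold change 7.78, SE 0.369, edgeR adjusted p = 3.59e-05). Cd3e, a chain of the CD3 complex, rose by a log2 fold change of 3.19 (SE 0.229, edgeR adjusted p = 0.000178), Tcf7, the factor TCF1, by 1.01 (SE 0.123, edgeR adjusted p = 0.00171) and Myc by 0.86 (SE 0.112, edgeR adjusted p = 0.00234). Il2ra, Gata3, Igf1r, Bcl11b and Il7r did not pass edgeR's adjusted threshold, with log2 fold changes between -0.49 and 1.18.

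Of 6 markers of DN3 cells, Ptcra, Rag1, Rag2, Cd3e and Lck were higher in every DN3 WT than in every DN2 WT library, and Il2ra overlapped. The 8 markers of DN2 cells were mixed: Kit, Cd44 and Il7r were lower in every DN3 WT library, and Tcf7 and Mpzl2 were higher in every one. The list summed to 2434 to 3179 CPM in DN2 WT and 2754 to 3317 CPM in DN3 WT, with 1 called as higher and 2 as lower. Other cell type lists also moved with stage, and their part in the results was not tested. The 7 myeloid markers summed to 114 to 159 CPM in DN2 WT and 29.9 to 36.8 CPM in DN3 WT, with 5 of 5 tested called as lower and S100a8 and S100a9 under 1 CPM in every library. The 8 thymic epithelial markers summed to 9.86 to 27.4 CPM in DN2 WT and 37 to 112 CPM in DN3 WT, most of it from Epcam (23.5 to 95.9 CPM in DN3 WT) and Ccl25 (12.8 to 15.2 CPM), with Foxn1, Krt5 and Krt8 at or near 0 and Dll4 at 0. The 6 markers of double-positive cells summed to 126 to 151 and 404 to 501 CPM, mostly Themis. In WT, Cd4 was at most 1.68 and Cd8a at most 4.3 CPM. Cd8b1 was at 0.454 to 0.958 CPM in DN2 WT and 5.22 to 10.3 CPM in DN3 WT. The 5 B cell markers summed to 38.6 to 49.6 and 61.2 to 66 CPM, of which Cd79b alone exceeded 1.23 CPM in any library. The 7 markers of cells after β-selection summed to 819 to 1192 CPM in DN2 WT and 855 to 942 CPM in DN3 WT, with 2 called as higher and 1 as lower; Cd28 and Cd27 (115 to 120 against 161 to 163 CPM) were higher and Top2a (439 to 668 against 289 to 345 CPM) lower in every DN3 WT library, and the 3 measured γδ markers to 201 to 241 and 259 to 294 CPM.

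In Arpp21-/- cells the same step from DN2 to DN3 gave calls for 3 of the 9 genes tested, with Notch3 and Dtx1 higher and Lfng lower in DN3. Over all 13780 genes 4.32% were called, 1.39% as higher and 2.93% as lower; the median log2 fold change was 0.028 over all genes and 0.01 over the 9. This comparison rests on 2 DN2 libraries, 1 of which stands apart. Dtx1 read 6.53 and 3.72 CPM in DN2 and 104, 128 and 86.7 CPM in DN3 Arpp21-/-. All 3 DN3 libraries were above both DN2 libraries, by at least 13.3-fold. Notch3 also lay wholly higher in DN3, as did 13.4% of all genes. Trib2 did too and is left out of this comparison, because its DN2 values were part of its choice. The log2 fold change of Dtx1 was 4.38 (SE 0.399, edgeR adjusted p = 0.000403). Without the 2 libraries that stand apart it was 4.14 (SE 0.338, edgeR adjusted p = 0.000166). The call ended, with a fold change as large, under limma voom with sample quality weights (4.67, adjusted p = 0.0675) and in an edgeR fit to the Arpp21-/- libraries alone (4.36, adjusted p = 0.0838).

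Notch3 read 48.3 and 9.97 CPM in DN2 and 489, 418 and 127 CPM in DN3 Arpp21-/-. The lowest value of each stage came from the library that stands apart, and the groups did not overlap. The log2 fold change was 3.57 (SE 0.778, edgeR adjusted p = 0.0305), and 3.22 (SE 0.408, edgeR adjusted p = 0.00187) without those 2 libraries. The call ended with voom (4.45, limma adjusted p = 0.181) and in the fit to the Arpp21-/- libraries alone (3.54, edgeR adjusted p = 0.287). Leaving out 1 library ended it in 3 cases: the edgeR adjusted p was 0.0865 without DN2 replicate 2, 0.09 without DN3 replicate 1 and 0.0915 without DN3 replicate 2.

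Notch1 read 436 and 35.8 CPM in DN2 and 1305, 997 and 249 CPM in DN3 Arpp21-/-. The groups overlapped because the DN3 library that stands apart lay below DN2 replicate 1, and the log2 fold change of 1.85 (SE 0.899) was not called (edgeR adjusted p = 0.28). Without the 2 libraries it was 1.39 (SE 0.217, edgeR adjusted p = 0.00563), which passes. Notch1 also passed without DN2 replicate 1 alone, at a log2 fold change of 4.58 (edgeR adjusted p = 0.00376), when the library that stands apart was all that was left of DN2.

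Lfng read 70.9 and 173 CPM in DN2 and 32.9, 31.1 and 50.3 CPM in DN3 Arpp21-/-. In CPM the high values at both stages were those of the libraries that stand apart. In TPM the DN2 library that stands apart was the lower one, at 49.1 against 58.1 TPM. In CPM DN3 was lower in every library, as for 11.6% of all genes. The log2 fold change was -1.68 (SE 0.39, edgeR adjusted p = 0.0405), and -1.16 (SE 0.253, edgeR adjusted p = 0.0288) without the 2 libraries. With an offset for transcript length the call ended, at -1.60 (edgeR adjusted p = 0.0578), as it did on log2(TPM + 1), at -0.97 (limma adjusted p = 0.0726), with voom, at -1.86 (limma adjusted p = 0.299), and in the fit to the Arpp21-/- libraries alone, at -1.69 (edgeR adjusted p = 0.367). The call was also lost without DN2 replicate 2 alone, at -0.93 (edgeR adjusted p = 0.235), without DN3 replicate 1 (edgeR adjusted p = 0.149) and without DN3 replicate 2 (edgeR adjusted p = 0.161).

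The remaining genes were not called between the stages in Arpp21-/- cells. Notch2 read 84.5 and 4.70 CPM in DN2 and 64.6, 54.4 and 15.5 CPM in DN3, with a log2 fold change of 0.0087 (SE 0.888) that was -0.51 (SE 0.272) without the 2 libraries. It passed without DN2 replicate 1, at 3.26 (edgeR adjusted p = 0.00765). Rbpj read 117 and 69.1 CPM in DN2 and 96.5, 105 and 57.5 CPM in DN3 (log2 fold change -0.11, SE 0.326, and -0.22 without the 2 libraries). Rbpj and Notch2 were each lowest in the library of their stage that stands apart.

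Hes1 read 29.5 and 65.5 CPM in DN2 and 23.7, 26.2 and 96 CPM in DN3 Arpp21-/- (log2 fold change 0.03, SE 0.708, and -0.25 without the 2 libraries). Here the libraries that stand apart were the highest of each stage in CPM. In TPM the one of DN2 was the lower Arpp21-/- library, at 25.4 against 31.8 TPM. Nrarp read 10.2 and 10.8 CPM in DN2 and 1.93, 5.88 and 11.4 CPM in DN3 (log2 fold change -0.72, SE 0.896, and -1.40 without the 2 libraries), and Dtx4 read 7.63 and 15.8 CPM in DN2 and 11.1, 7.79 and 11.1 CPM in DN3 (log2 fold change -0.23, SE 0.373, and 0.30 without the 2 libraries). Both overlapped between the stages. Of the other pathway genes 0 of 49 tested were called by edgeR, 3 had an unadjusted p under 0.05 and 0 were called by DESeq2, and of the 9 Notch-dependent genes 2 were called as higher.

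**Figure D4:**
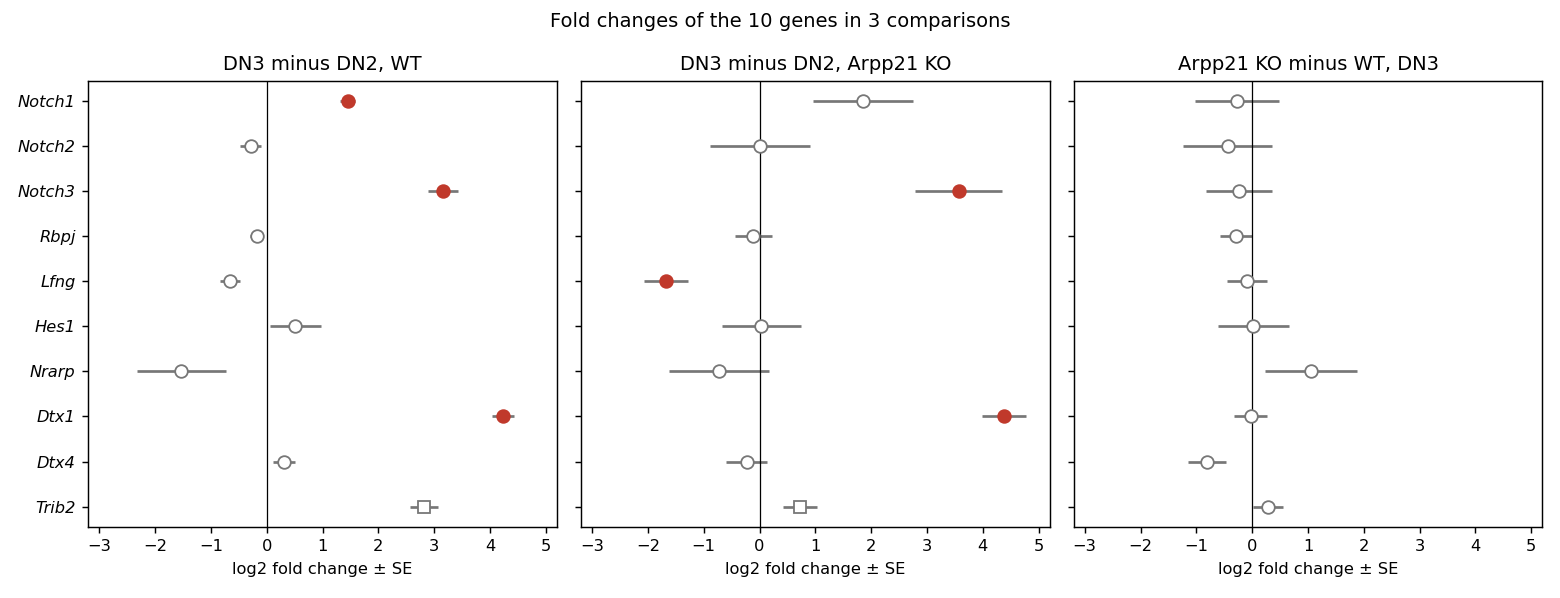
Log2 fold change with its SE (horizontal axis) of the 10 genes for DN3 minus DN2 in WT (left), DN3 minus DN2 in Arpp21-/- (middle) and Arpp21-/- minus WT in DN3 (right). Filled red circles were called at an edgeR adjusted p under 0.05, open circles were not, and open squares mark Trib2 where it was not tested; the error bars are wider in the middle and right panels, and no gene is called on the right.

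Between Arpp21-/- and WT at DN3, 0 of the 10 genes were called by edgeR's quasi-likelihood test, 1 had an unadjusted p under 0.05 and 0 were called by DESeq2. The background was as sparse: 0.00726% of the 13780 genes were called by edgeR, 214 genes had an unadjusted p under 0.05, and DESeq2 called 16. The median log2 fold change was -0.16 over the 10 genes and -0.005 over all genes.

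Dtx4 was the gene with the lowest p. The WT libraries read 20.8, 15.3 and 16.6 CPM. The Arpp21-/- libraries read 11.1, 7.79 and 11.1 CPM. The highest of these was below the lowest WT library, which held for 1 of the 10 genes and for 5.57% of all genes tested, and 0 of the 10 lay wholly higher, against 4.97% of all genes. The means were 17.5 ± 2.86 and 9.99 ± 1.91 CPM (SD, n = 3), and the log2 fold change was -0.81 (SE 0.337, edgeR unadjusted p = 0.0364, adjusted p = 1). Without the 2 libraries that stand apart the difference was as large, at a log2 fold change of -0.89 (SE 0.252, edgeR adjusted p = 0.625). The lowest adjusted p over the alternatives, 0.0549, came from limma voom with sample quality weights, at -0.94.

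Trib2 at DN3 was a measurement that its choice did not use. The WT libraries read 39.4, 30.4 and 30.2 CPM, against 37.1, 40.1 and 44.7 CPM for Arpp21-/-. The groups overlapped by 1 WT library, and the difference was not called (log2 fold change 0.29, SE 0.269, edgeR adjusted p = 1). Without the libraries that stand apart it was 0.21 (SE 0.224).

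Dtx1 was at 108 ± 8.99 CPM in DN3 WT and 106 ± 20.5 CPM in DN3 Arpp21-/- (SD, n = 3), with a log2 fold change of -0.03 (SE 0.29), and of 0.09 without the libraries that stand apart. The receptors had negative fold changes that turned on 1 library. Notch1 was at 956 to 1105 CPM in WT and at 1305, 997 and 249 CPM in Arpp21-/- (log2 fold change -0.28, SE 0.751), and its value was 0.15 (SE 0.151) without the libraries that stand apart. Notch3 went from -0.23 (SE 0.593) to 0.16 (SE 0.254) and Notch2 from -0.44 (SE 0.796) to -0.04 (SE 0.207) in the same way.

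Hes1 had a log2 fold change of 0.02 (SE 0.633) at DN3, and of -0.96 (SE 0.491) without the libraries that stand apart, since the remaining Arpp21-/- libraries read 23.7 and 26.2 CPM against 24.8, 53.1 and 66.3 CPM in WT. Replicate 1 of WT lay between the 2 Arpp21-/- values, so the groups overlapped in either case. Rbpj (log2 fold change -0.29, SE 0.292), Lfng (-0.09, SE 0.353) and Nrarp (1.05, SE 0.826) did not pass, and without the libraries that stand apart they were at -0.07, -0.35 and 0.33. Of the other pathway genes, 0 of 49 were called by edgeR, 0 had an unadjusted p under 0.05 and 0 were called by DESeq2, with a median log2 fold change of -0.11.

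At DN2 the 2 genotypes are compared as a description, since Trib2 was chosen on this contrast. In the WT libraries Trib2 read 5.44, 3.54 and 5.37 CPM. In the Arpp21-/- libraries it read 21.7 and 27.3 CPM. Both Arpp21-/- libraries lay above all WT libraries, 3.99-fold at the least, and below all DN3 WT libraries. In CPM it was the 1 gene of 10 without overlap between the genotypes. Of all genes 7.52% were higher and 8.28% lower without overlap, and nothing is read from this count. The means were 4.78 ± 1.07 (SD, n = 3) and 24.5 ± 3.97 CPM (SD, n = 2), with a log2 fold change of 2.36 (SE 0.302), and of 2.20 without the libraries that stand apart. The lowest value over the alternatives was 1.45, on the log2(TPM + 1) scale. Trib2 was chosen for these same values. Neither the SE nor the values in other settings are therefore evidence for the difference.

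Other genes that are higher in DN3 than in DN2 of WT gave mixed values in DN2 Arpp21-/- cells. In replicate 1, which does not stand apart, Dtx1 at 6.53 CPM, Notch3 at 48.3 CPM, Ptcra at 2.52 CPM, Cd3e at 125 CPM and Cd28 at 6.76 CPM lay within the range of the DN2 WT libraries. Rag1, the recombinase subunit, was at 4.6 CPM against 6.67 to 14.5 CPM in DN2 WT. In replicate 2, Ptcra at 11.7 CPM was above the DN2 WT range, and Dtx1, Notch3, Rag1, Cd3e and Cd28 were below it. Lck, a kinase of the T cell receptor pathway, was above its DN2 WT range of 1122 to 1181 CPM in both libraries, at 1270 in replicate 1 and 2311 CPM in replicate 2, the latter within the DN3 WT range of 2189 to 2392 CPM. The 6 markers of DN3 cells summed to 2353 to 3116 CPM in DN2 WT and to 2559 and 2612 CPM in DN2 Arpp21-/-, a sum in which Il2ra and Lck weigh most.

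**Figure D5:**
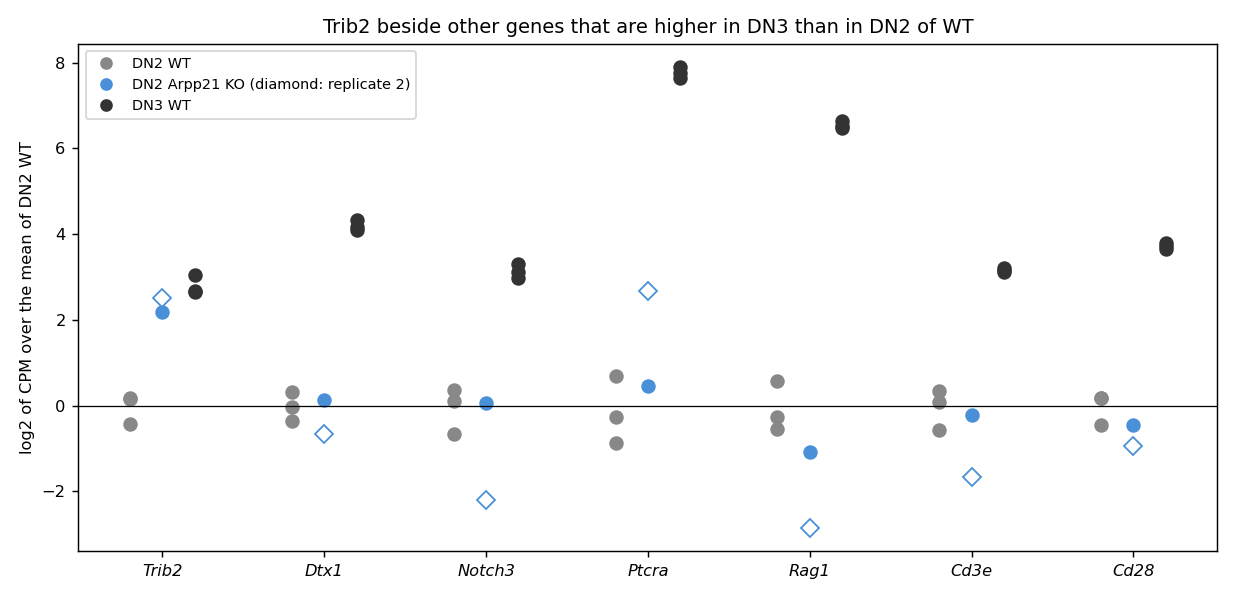
Log2 of CPM over the mean of the DN2 WT libraries (vertical axis) for Trib2 and 6 other genes that are higher in DN3 WT than in DN2 WT, 1 point per library, with DN2 WT in grey, DN2 Arpp21-/- in blue (diamond, replicate 2) and DN3 WT in black. Of the 7 genes plotted, Trib2 is the one for which both blue points lie near the black points. Trib2 was listed for its level in the blue points, so nothing is read from that. Lck, which was above its DN2 WT range in both DN2 Arpp21-/- libraries, is not plotted.

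Myeloid markers summed to 134 and 357 CPM in replicates 1 and 2 of DN2 Arpp21-/-, against 114 to 159 CPM in DN2 WT. Tyrobp was at 53.2 and 203 CPM, against 43.2 to 59.8 CPM in DN2 WT. In replicate 2, where short transcripts read high, Lyz2 and Fcer1g were also above DN2 WT, and Csf1r and Itgam were below it. The part of these markers in the Trib2 values was not tested. In CPM the 9 other genes overlapped between the genotypes at DN2, and replicate 1 of Arpp21-/- lay inside the WT range for all but Notch1 and Dtx4. In that library Notch1 at 436 CPM was just above the highest DN2 WT library at 429 CPM, and Dtx4 at 7.63 CPM was below the 13.1 to 16.3 CPM of DN2 WT. In TPM, Dtx4 and Rbpj were those of the 9 that did not overlap. The share of all genes without overlap in TPM was not computed, so nothing is read from this. Dtx4 was at 2.11 and 1.53 TPM in DN2 Arpp21-/- against 3.26 to 4.33 TPM in DN2 WT. Rbpj was at 41.5 and 12.2 TPM against 46.1 to 52.1 TPM. Without the libraries that stand apart, Notch1 had a log2 fold change of 0.20 and Notch3 of 0.09 at DN2.

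The stage step of Trib2 was accordingly 2.82 on the log2 scale in WT and 0.73 (SE 0.307) in Arpp21-/- cells, both without a test, since they share DN2 libraries with its choice. For the other 9 genes the interaction of stage and genotype gave 0 calls by edgeR, 0 at an unadjusted p under 0.05 and 0 by DESeq2, against 0 genes called by edgeR and 10 by DESeq2 among all 13780, of which 373 had an unadjusted p under 0.05. Leaving out DN2 Arpp21-/- replicate 1, so that the library that stands apart was the only one of its group, gave 3 calls among the 9 and 3664 among all genes.

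At the level of transcripts, Trib2 came mainly from its 4198-base coding transcript, which held a mean of 92.2% of Trib2 TPM in DN2 WT, 78.8% in DN3 WT and 72.6% in DN2 Arpp21-/-. The DN2 Arpp21-/- mean joins 2 unlike libraries. Replicate 1, with 7.2 of 8.47 TPM, was just below the lowest DN2 WT share of 85.1%. Replicate 2, in which long transcripts read low, was at 60.3%. A shorter coding transcript of 1192 bases held a mean of 2.02% in DN2 WT, 14.8% in DN3 WT, 21.4% in DN2 Arpp21-/- and 25.0% in DN3 Arpp21-/-. Its share was 13.3% in replicate 1 and 29.6% in replicate 2 of DN2 Arpp21-/-, against at most 6.05% in DN2 WT. Short transcripts read high in that replicate 2, and a difference in shares between the genotypes was not tested. The shorter transcript was at 1.12 and 1.42 TPM in the DN2 Arpp21-/- libraries and 1.61 to 2.59 TPM in the DN3 WT libraries. In the DN2 WT libraries it was at most 0.0765 TPM.

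For Dtx1 the most abundant annotated transcript was a retained-intron transcript of 2961 bases, at 38.2 ± 5.13 TPM in DN3 WT, against 11.9 ± 7.14 TPM for the 4035-base coding transcript (SD, n = 3). The coding transcript held a mean share of 20.3% in DN3 WT and of 23.3% in DN3 Arpp21-/-. Notch1 came from its full-length 9488-base transcript for 61.6% of TPM in DN2 WT and 67.3% in DN3 WT. A 512-base coding transcript of Notch1 held 15.3% and 15.5%, and 61.1% in the DN2 Arpp21-/- library that stands apart, where the share of the full-length transcript was 30.2%. Notch3 was 89.9% and 92.6% its 8016-base coding transcript in DN2 WT and DN3 WT. Hes1 was nearly all 1 coding transcript of 1468 bases, with 99.3% in DN2 WT and 98.3% in DN3 WT. Estimates for transcripts of 1 gene divide shared reads and are less certain than their sum.

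Across the 11 libraries the genes whose pattern was most like that of each of the 10 were found by the root mean square difference of centred log2(CPM + 1), among 5177 genes. For Notch1 they were Slc12a7 (0.13) and Hdac7 (0.23), and for Notch2 Cbfa2t3 and Pbxip1 (0.20 each), all 4 of them lower in the libraries that stand apart, as Notch1 and Notch2 were. For Notch3 they were Ptprf (0.36) and Gfra1 (0.40), for Rbpj Tnfrsf1b (0.20) and Ehbp1l1 (0.21), and for Lfng Itm2b (0.14) and Dnajb1 (0.15). Hes1 was most like Ugcg (0.24) and Etnk1 (0.25), which share its low value in WT replicate 1 at both stages, and Nrarp was most like Cdk17 (0.37) and Pank2 (0.38). Dtx1 was most like Tnfrsf8 (0.32), which read at most 0.0454 CPM in DN2 WT and 20.2 to 26.7 CPM in DN3 WT, and Cd28 (0.33). Dtx4 was most like Isg15 (0.33) and Sec24a (0.41). Trib2 had the most distant neighbors, Aqp11 (0.51) and Fbxl12 (0.57); Aqp11 read 103 to 112 CPM in DN2 WT, 142 and 232 CPM in DN2 Arpp21-/- and 415 to 479 CPM in DN3 WT. Fbxl12 read 17.6 to 23.8, 25 and 45.5, and 80 to 96.2 CPM in the same groups. Both genes were above DN2 WT in both DN2 Arpp21-/- libraries, Fbxl12 narrowly so in replicate 1. They were picked by likeness to Trib2 over libraries that include these, so nothing is read from that.

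By annotation (GENCODE M21, GRCm38), all 10 genes are protein-coding; Notch1 and Nrarp share chromosome 2, and Rbpj, Lfng and Dtx1 share chromosome 5. Notch1 is at chr2:26457903-26516663 on the minus strand, Notch3 at chr17:32120820-32166852 on the minus strand, and Dtx1 at chr5:120680202-120711927 on the minus strand. Lfng is at chr5:140607320-140615545 on the plus strand, Dtx4 at chr19:12466338-12501454 on the minus strand and Trib2 at chr12:15791727-15816922 on the minus strand.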

How the data were processed

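RNA of sorted DN2 and DN3 thymocytes (2 to 3 libraries per group) was sequenced as 150-bp read pairs after SmartSeq V4 and Nextera preparation; the labels give total RNA, the methods poly(A) selection. The authors quantified transcripts with kallisto 0.46 (submitters' processing notes) against Ensembl 101 (GRCm38). The deposited values are estimated counts per transcript, not normalized, TPM, which the authors' tool divides by effective length and scales per library, and effective lengths in bases, another unit the authors deposited.

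Estimated counts were summed per gene by GENCODE M21 identifiers, leaving out 0.933% to 1.069% of counts without a match, and rounded. Fold changes were tested two-sided with edgeR 4.0.16 in R 4.3.3 (glmQLFit and glmQLFTest, TMM factors, filterByExpr with minimum count 10 and minimum total count 15), with Benjamini-Hochberg adjustment over every gene in the fit, and a gene was called below an adjusted p of 0.05. DN3 against DN2 in WT was fitted to the 6 WT libraries, because a shared fit would take its spread from Arpp21-/- libraries known to stand apart (common dispersion 0.2814 against 0.09569); the other comparisons were fitted to all 11 libraries in 4 groups. Standard errors are the absolute log2 fold change over the square root of the F statistic. CPM are on the TMM scale of all 11 libraries.

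The members and gene lists were chosen with earlier results of these data known. Trib2 was tested only for genotype at DN3, and genotype at DN2 is a description. Named beside the 10 genes are every ligand, up to 4 genes per list called between the stages in WT with the largest absolute log2 fold change, and for each member the 2 genes with the most like pattern over 11 libraries, among those with a mean of at least 10 CPM and an SD of at least 0.5.

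Whether replicate numbers pair libraries was checked by correlating deviations from group means over 8510 genes. DN2 WT and DN3 WT of the same number gave r = 0.72, 0.29 and 0.58, all positive, although DN2 WT replicate 3 also gave 0.36 with DN3 WT replicate 2. The main test between the stages in WT did not pair the libraries. The number was used as a block in an alternative setting only, and no label states a pairing. Alternatives were DESeq2 1.42.0, its size factors, no count filter, an offset for transcript length, limma-trend on log2(TPM + 1) and voom with sample weights (limma 3.58.1), other sets of libraries, replicate blocks, and each library left out. Scripts were tested on simulated data. The columns used carry per-library values only.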

Additional observations from a re-analysis of the deposited data

How the results depend on the processing

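Between the stages in WT, Notch1, Notch3, Dtx1, Lfng, Hes1, Nrarp, Notch2, Rbpj and Dtx4 kept their direction under every alternative run; the fit to all 11 libraries called 562 genes in place of 1946 and lost the call of Notch1. With 1 library left out, 979 to 2226 genes and 3 to 4 of the 9 genes were called, with 1209, 1056 and 979 genes without DN3 WT replicates 1, 2 and 3. The replicate block, which pairs the WT libraries, called 2898 genes and changed no call among the 9 other than that of Lfng (log2 fold change -0.67).

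Between the stages in Arpp21-/- cells, where 595 genes and 3 of the 9 were called, DESeq2 called 1600 genes, voom with sample weights 140 genes and 0 of the 9, the fit to the Arpp21-/- libraries alone 0 genes and 0 of the 9, the replicate block by genotype and number 120 genes and 2 of the 9, without Lfng (adjusted p = 0.121, edgeR), and the fit without the libraries that stand apart 896. With 1 library left out the counts were 281 to 6754 genes and 1 to 5 of the 9; the highest of both came without DN2 Arpp21-/- replicate 1. Log2 fold changes near 0 changed sign: Notch2 from 0.0087 to -0.00095 without the filter, -0.31 with the length offset, -0.01 with the Arpp21-/- libraries alone and -0.51 without the libraries that stand apart; Rbpj from -0.11 to 0.28 on log2(TPM + 1), 0.21 with voom and 0.16 with the block by genotype and number; Hes1 from 0.03 to -0.0032 with DESeq2, -0.004 with its size factors, -0.82 with voom, -0.25 without the libraries that stand apart, -0.57 with the replicate block and -0.82 with the block by genotype and number; Dtx4 from -0.23 to 0.29 on log2(TPM + 1) and 0.30 without the libraries that stand apart. With 1 library left out Notch2 ran from -0.95 to 3.26, Rbpj from -0.47 to 0.33, Hes1 from -0.93 to 0.69 and Dtx4 from -0.65 to 0.36.

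For genotype at DN3, where 1 gene was called, DESeq2 called 16, voom 118, the fit to the DN3 libraries alone 0, that without the libraries that stand apart 5, the replicate block 0 and each fit with 1 library left out 0 to 0; none of the 10 genes was called under any of these. Without the libraries that stand apart Notch1 was at 0.15, Notch3 at 0.16, Hes1 at -0.96 and Dtx1 at 0.09; with voom Notch3 was at 0.03, Hes1 at -0.92 and Dtx1 at 0.13; Hes1 was at -0.0048 without the filter, -0.40 on log2(TPM + 1) and -0.15 with the replicate block; and Lfng at 0.0073 with the length offset. With 1 library left out Notch1 ran from -0.72 to 0.16, Notch3 from -0.57 to 0.16, Lfng from -0.34 to 0.04, Hes1 from -0.95 to 0.35 and Dtx1 from -0.18 to 0.10. For the interaction DESeq2 called 10 genes, and leaving out 1 library gave 0 to 3664 genes and 0 to 3 of the 9. The cause of these changes was not tested. The numbers of DN3 WT and DN3 Arpp21-/- libraries (r = 0.5, -0.32 and 0.17) did not pair them. Where 1 library of DN2 Arpp21-/- was left out, the lone library was assumed to vary like the others.

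With 2 or 3 libraries per group and 2 that stand apart, even differences of several-fold between the genotypes at DN3 are not reliably called, and values of the long receptor transcripts in those libraries are the least certain. Counting error is small beside this: 3 counts are at most 0.242 CPM.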
